A study of Mus musculus with 4 samples.

Results

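The T cell receptor complex and its proximal signalling proteins were examined by their transcripts in CCR6+ group 3 innate lymphoid cells (ILC3), lymphocytes that by definition carry no T cell receptor on their surface. The set of 10 genes held the CD3 chains (Cd3d, Cd3e, Cd3g), the zeta chain (Cd247), the coreceptors (Cd4, Cd8a, Cd8b1), the kinases Lck and Zap70 and the adaptor Lat. A gene was taken where a probe set of the array named it alone, and 9 of the 10 were found among 19938 named genes, each with 1 such probe set. Lck is not analysed here, because the annotation used here lists no probe set under its name.

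RNA of these cells, taken from mesenteric lymph nodes of naive mice of strain C57BL/6, was hybridised to 4 arrays, numbered 1 to 4. All 4 samples are of 1 group. Cells were sorted as CD127+ CD90.2+ CCR6+ and ST2-, and the labels name no marker that excludes T cells, B cells or other lineages. Whether each sample was a separate animal or a pool is not given, so the spread between arrays may be partly technical.

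In a T cell, the antigen receptor has no signalling tail of its own and is assembled with CD3 gamma, delta and epsilon and with zeta dimers, whose tyrosine motifs are phosphorylated by LCK. CD4 and CD8 carry LCK to the receptor, ZAP70 docks on the phosphorylated motifs, and ZAP70 phosphorylates LAT, the membrane scaffold on which phospholipase C gamma and RAS activators assemble. Several of these genes are also used outside T cells: CD4 marks many lymphoid tissue inducer cells, which belong to the CCR6+ ILC3, NK cells signal through zeta and ZAP70, and transcripts of CD3 chains and of the receptor gamma locus have been described in innate lymphoid cells.

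The 3 CD3 genes lie next to each other on chromosome 9. Cd3d and Cd3g are transcribed away from each other from starts 1355 bases apart, and Cd3e follows Cd3d on the other side. Their promoter windows are shown because these 3 neighbours shared a pattern across the arrays that is described below. The windows are from RefSeq (build GRCm38.p6), with 250 bases before and 50 after the start, and 8 of the 10 genes had at least 1 window there, while Cd4 and Cd8b1 did not. Capitals mark matches, on either strand, to the E-box CAGGTG, the ETS core AGGAAG, the RUNX core TGTGGT and the TCF/LEF core CTTTGA.
Cd3d (chr9:44981536-44981835, plus strand): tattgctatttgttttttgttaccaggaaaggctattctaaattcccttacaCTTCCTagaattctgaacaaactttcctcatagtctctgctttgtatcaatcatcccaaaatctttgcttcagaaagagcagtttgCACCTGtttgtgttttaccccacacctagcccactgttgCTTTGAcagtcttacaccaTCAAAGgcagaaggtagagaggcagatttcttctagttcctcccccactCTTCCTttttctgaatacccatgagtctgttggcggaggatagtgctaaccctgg
Cd3g (chr9:44980382-44980681, minus strand): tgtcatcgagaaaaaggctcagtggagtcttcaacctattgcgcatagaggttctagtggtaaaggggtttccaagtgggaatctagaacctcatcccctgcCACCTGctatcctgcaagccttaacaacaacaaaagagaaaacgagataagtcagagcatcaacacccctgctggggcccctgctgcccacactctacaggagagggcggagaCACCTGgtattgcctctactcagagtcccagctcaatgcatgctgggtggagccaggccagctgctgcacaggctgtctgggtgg
Cd3e (chr9:45009562-45009861, minus strand): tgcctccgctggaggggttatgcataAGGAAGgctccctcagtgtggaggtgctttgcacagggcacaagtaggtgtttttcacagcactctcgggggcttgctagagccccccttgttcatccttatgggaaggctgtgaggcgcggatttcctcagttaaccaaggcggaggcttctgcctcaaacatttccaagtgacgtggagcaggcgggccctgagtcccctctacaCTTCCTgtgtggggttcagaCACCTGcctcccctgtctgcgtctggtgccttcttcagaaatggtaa
The window of Cd3d held 1 E-box, 2 ETS and 2 TCF/LEF matches, that of Cd3g held 2 E-boxes, and that of Cd3e held 1 E-box and 2 ETS matches. None of these 3 windows held the RUNX letters. Of 32851 mouse promoter windows of the same length, 20.2% held the E-box, 35.4% the ETS letters, 16.8% the RUNX letters and 16.0% the TCF/LEF letters. The E-box was not particular to the CD3 genes. Windows of Cd247, Zap70 and Lck also held it, and those of Cd8a and Lat did not. Whether any of these letters bears on the pattern of the CD3 genes across the arrays was not tested. E-boxes are bound by E proteins, which ID2 represses. Id2 was at 11.54 ± 0.12 (SD, n = 4, log2 scale, as for all levels that follow), and its part in the levels of the CD3 genes was not tested. A match of letters is a description and no evidence of binding.

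Levels are log2 values of single probe sets. Binding strength varies from one probe set to the next, so a level was read against background and against the same gene on the other arrays, and a difference in level between genes is not a ratio of their RNA. Background was given by 1237 receptor genes of smell and taste (olfactory, vomeronasal, trace amine-associated and bitter taste families), which lymphocytes are not known to use. A gene is called above background where its one-sided detection p, the share of background genes at or above its mean, was under 0.05 after Benjamini-Hochberg adjustment over all named genes. The lowest mean called was 6.37, the median of the background genes 4.25 and their 95th percentile 5.82.

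All 9 genes measured were above background, as were 46.2% of all named genes. The same call was also passed by 7 of 15 genes of other organs, a list of genes known from tissues such as liver, muscle, testis and lens, and limma's test called 10 of these 15, so a call says that a signal lay above the receptor genes of smell and taste and not that a transcript is typical of lymphocytes. Of these 7, Cryaa of the lens was at 7.51 ± 0.16, Ckm of muscle at 7.33 ± 0.14, Apoa1 of the liver at 7.24 ± 0.11 and Tnnt3 of muscle at 7.08 ± 0.11, all above the mean of Cd247 given below. The median level was 8.77 over the members and 6.16 over all named genes, a description across probe sets that bind differently. The same 9 were called by limma's one-sided test against the 95th percentile of background, which called 53.5% of all genes, and on each single array all 9 exceeded the 95th percentile of the background genes, as did 54.4% of all genes. A stricter reading, above every gene of a list from other organs on every array, was met by 5 of the 9 genes, Cd3e, Cd3g, Cd4, Zap70 and Lat, and by 16.1% of all genes. The highest of the organ genes was Mbp, known for myelin but with transcripts also described in lymphocytes, at 7.98 ± 0.06. With Mbp left out, a choice made after the data were seen, Cd3d also passed, making 6 of 9 genes against 21.7% of all genes.

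**Figure D1:**
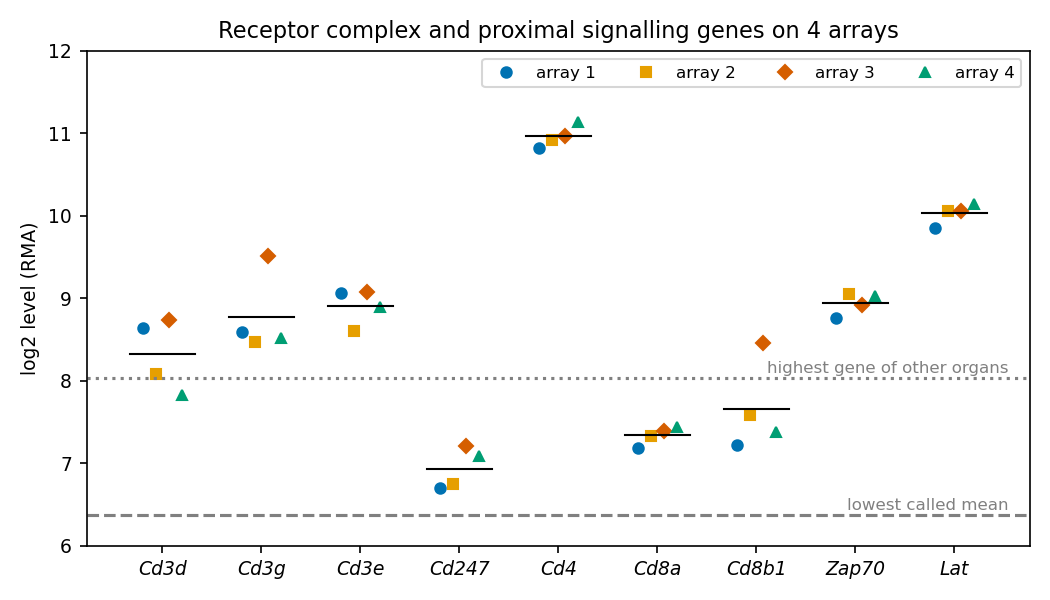
Log2 level (vertical axis) of the 9 measured genes on arrays 1 to 4 (symbols), with the mean as a black line. The dashed line is the lowest mean called above background, 6.37, and the dotted line the highest value of any gene of other organs, 8.03; Cd247 and Cd8a lie between the lines on all 4 arrays.

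The signalling chains of the complex were taken first. Cd3e, the chain shared by both CD3 dimers, was at 9.07, 8.60, 9.07 and 8.89 on arrays 1 to 4 (8.91 ± 0.22), with an adjusted detection p of 0.0143. The lowest value, on array 2, was the one that set its range: the 4 arrays spanned 0.47 log2 units, a fold of 1.39, but 0.18 without array 2. Of the background genes, no more than 2 lay at or above Cd3e on any array.

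Cd3g, which pairs with epsilon in one of the dimers, was at 8.59, 8.47, 9.51 and 8.52 on arrays 1 to 4 (8.77 ± 0.50), with an adjusted detection p of 0.0143. Array 3 stood 2.06-fold above array 2, while the other 3 arrays lay within 0.12 log2 units of each other. Its SD was larger than that of 95.6% of all genes above background.

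Cd3d, which pairs with epsilon in the other dimer, was at 8.64, 8.08, 8.74 and 7.83 on arrays 1 to 4 (8.32 ± 0.44), with an adjusted detection p of 0.0143. Arrays 1 and 3 were high and arrays 2 and 4 low, with a range of 0.91 log2 units, a fold of 1.87.

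Cd247, the zeta chain with the largest number of tyrosine motifs in the complex, was at 6.70, 6.75, 7.20 and 7.08 on arrays 1 to 4 (6.93 ± 0.25), with an adjusted detection p of 0.0260. It was the member nearest to background: between 8 and 17 of the 1237 background genes lay at or above it on each array. On no array did it exceed the highest of the genes of other organs, so the call carries less weight than those of the CD3 chains.

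The coreceptors differed in how far they stood from background. Cd4, which binds MHC class II, was at 10.82, 10.92, 10.96 and 11.14 on arrays 1 to 4 (10.96 ± 0.13), with an adjusted detection p of 0.0108. No background gene reached it on any array. Its range was 0.32 log2 units, or 0.14 without array 4, the highest.

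Cd8a, which forms CD8 homodimers or pairs with CD8 beta, was at 7.18, 7.33, 7.39 and 7.43 on arrays 1 to 4 (7.34 ± 0.11), with an adjusted detection p of 0.0218. It was steady, within a fold of 1.19, and below the highest gene of other organs on all 4 arrays.

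Cd8b1, whose product is found with CD8 alpha on conventional cytotoxic T cells, was at 7.23, 7.58, 8.46 and 7.37 on arrays 1 to 4 (7.66 ± 0.55), with an adjusted detection p of 0.0161. Array 3 was 2.36-fold above array 1, the widest range among the 9 genes, and the range was 0.36 log2 units without array 3. Cd8b1 exceeded every gene of other organs on array 3 alone, whereas its neighbour and partner Cd8a did not rise above 7.43 on any array.

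The kinase and the scaffold were the steadiest members beside Cd4 and Cd8a. Zap70 was at 8.76, 9.06, 8.92 and 9.03 on arrays 1 to 4 (8.94 ± 0.13), with an adjusted detection p of 0.0143 and a range of 0.29 log2 units, or 0.14 without array 1, the lowest. Lat was at 9.86, 10.06, 10.06 and 10.14 (10.03 ± 0.12), with an adjusted detection p of 0.0108 and a range of 0.29 log2 units, or 0.08 without array 1, also its lowest. At most 1 background gene reached Lat on any array.

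**Figure D2:**
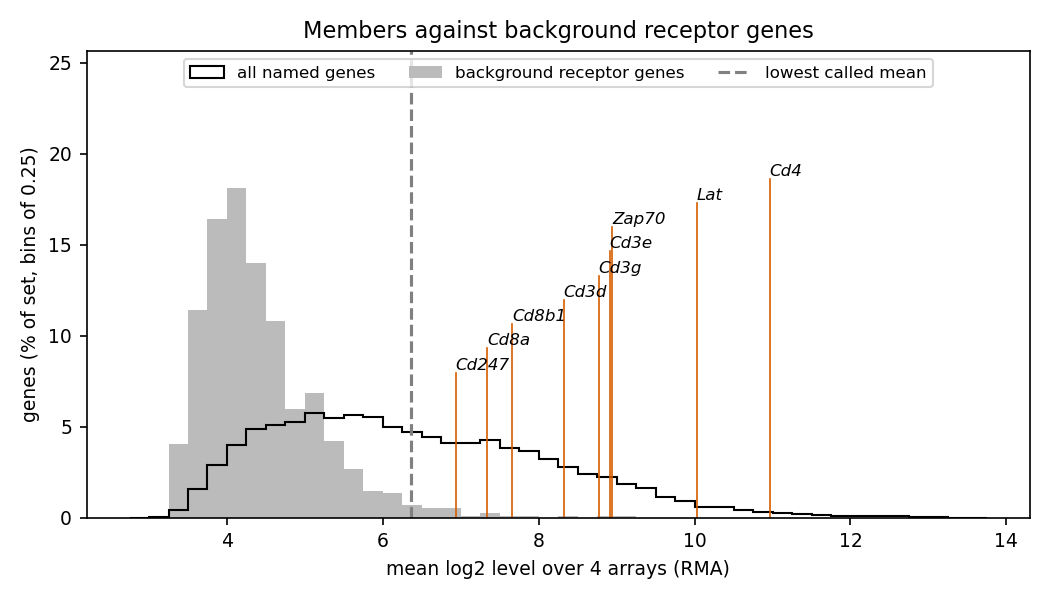
Share of genes (vertical axis, percent of each set in bins of 0.25) by mean log2 level over the 4 arrays, for 1237 background receptor genes (grey) and all 19938 named genes (black line). Orange lines mark the means of the 9 genes, from Cd247 at 6.93 to Cd4 at 10.96, all to the right of the lowest called mean of 6.37 (dashed); their heights only separate the names.

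The members fell apart by how they moved between arrays. Cd4, Cd8a, Zap70 and Lat had SDs of 0.11 to 0.13, below the median SD of 0.168 over all genes above background, and the other 5 were above it. Cd3g and Cd8b1 also exceeded the 95th percentile of 0.476. Array 3 was the highest for 5 of the 9 (Cd3d, Cd3e, Cd3g, Cd247 and Cd8b1), as it was for 25% of all genes above background. Array 1 was the lowest for 6 of the 9 (Cd247, Cd4, Cd8a, Cd8b1, Zap70 and Lat), as it was for 24.1% of those genes.

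The 3 CD3 chains shared a further feature that the other 6 genes did not show: arrays 1 and 3 both exceeded arrays 2 and 4, although by little for Cd3g on array 1. Of all genes above background, 16.4% had this order. Their mean was 8.76, 8.38, 9.11 and 8.41 on arrays 1 to 4, a range of 0.72 log2 units, which was 0.38 without array 3.

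Most B cell markers had the same order. Of 12 B cell markers measured, 11 were above background, beside 46.2% of all named genes. Values were higher on arrays 1 and 3 than on the other 2 for 10 of the 12, and for 9 of the 11 called. The order was not particular to B cell markers. It was also found in 4 of 9 housekeeping genes and in 12 of the 42 called signalling genes listed below, beside 16.4% of all genes above background. The B cell list averaged 8.52, 7.69, 8.70 and 7.51 on arrays 1 to 4. Cd79a, a signalling chain of the B cell receptor, was at 9.59, 8.33, 9.43 and 8.03, and Ms4a1, which encodes CD20, at 9.10, 7.81, 9.45 and 7.95. Fcrla, at 5.96 ± 0.38, was the B cell marker not called. The part of the B cell markers in the movement of the CD3 chains was not tested. All 9 members were also above background on arrays 2 and 4 alone, where 44.3% of all genes were called. B cell markers averaged lowest on these arrays, but 9 of the 12 were called there too; these arrays were chosen after the data were seen.

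T cell markers outside the complex did not show this order as a list. Of 11 measured, 3 had higher values on arrays 1 and 3 than on the other 2, and 2 of these 3 were above background. Their means were 6.77, 6.80, 6.86 and 6.83 on arrays 1 to 4. Above background were 8 of 11 measured, with 1 of them above every gene of other organs on every array. Beside these stand 46.2% and 16.1% of all named genes. That gene was Lef1, a transcription factor of naive T cells and of other lymphocytes, at 9.07 ± 0.05. Cd5, a T cell surface glycoprotein also found on some B cells, was at 7.65 ± 0.20, Camk4, a calcium-dependent kinase, at 7.62 ± 0.20, Ubash3a, a phosphatase-related regulator of ZAP70 signalling, at 7.31 ± 0.50, Bcl11b, a T lineage factor also used by ILC2, at 7.17 ± 0.09 and Cd28 at 7.15 ± 0.32. Themis, a T cell development factor, was at 6.15 ± 0.30, Cd40lg at 4.97 ± 0.28 and Trat1, an adaptor bound to the receptor complex, at 4.27 ± 0.30, and these 3 were not called. Tcf7 is not analysed here. Whether T cells in the sort contributed to the levels of the CD3 and CD8 genes was not tested, and in bulk RNA fewer cells with a transcript cannot be told apart from less transcript per cell.

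**Figure D3:**
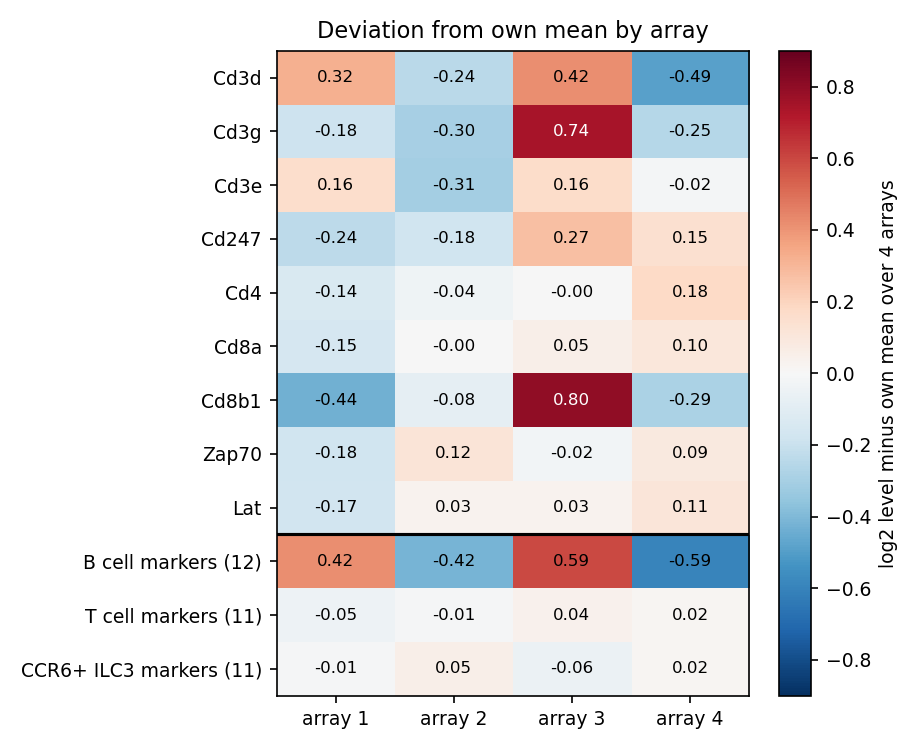
Log2 level minus the gene's own mean over 4 arrays (colour and printed values), for the 9 genes (rows above the line) and for the means of 12 B cell, 11 T cell and 11 CCR6+ ILC3 markers (rows below it), by array. Cd3g and Cd8b1 stand out on array 3, at 0.74 and 0.80, and the B cell markers run from 0.59 on array 3 to -0.59 on array 4, while the T cell and ILC3 rows stay within 0.06 of their means.

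As a list, CCR6+ ILC3 markers were steady beside the B cell markers. All 11 CCR6+ ILC3 markers measured were above background, and the list averaged 10.43, 10.49, 10.39 and 10.46 on arrays 1 to 4. Of the genes behind the sort gate, Il7r (CD127) was at 12.56 ± 0.06, Thy1 (CD90) at 11.36 ± 0.15 and Ccr6 at 10.49 ± 0.09. Il23r was at 11.24 ± 0.06 and Ltb, a lymphotoxin chain, at 11.33 ± 0.07. NK and ILC1 markers were of interest because NK cells use Cd247 and Zap70. They were above background in 8 of 12 cases, beside 46.2% of all named genes, and averaged 6.91, 7.15, 6.91 and 6.65. Ccl5, a chemokine of NK and memory T cells, was at 8.96, 10.31, 10.69 and 9.27. Klrk1, which encodes NKG2D, was at 8.28 ± 0.61 and Klrb1c, the NK1.1 gene, at 8.02 ± 0.05. Xcl1 at 8.06 ± 0.58, Ncr1 at 7.66 ± 0.57, Klrd1 at 6.79 ± 0.28, Tbx21 at 6.52 ± 0.31 and Prf1 at 6.41 ± 0.07 were also called. The NK factor Eomes at 4.80 ± 0.08, Gzmb at 4.79 ± 0.26 and Itga2 at 5.63 ± 0.26 were not called. Gzma, at 5.19, 7.89, 5.41 and 5.94, was not called over the 4 arrays, but was called without array 1, at 6.41. Dendritic cell and macrophage markers were above background in 3 of 13 cases, Lyz2, Cd68 and Zbtb46, and in 5 without array 2 or without array 4.

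The receptor chains themselves were examined through the gene segments the array covers. Of 9 segment genes named alone, 2 were above background, beside 46.2% of all named genes. Trgv1, a variable segment of the gamma chain, was at 9.95, 10.49, 9.62 and 9.50 on arrays 1 to 4 (9.89 ± 0.44) and above every gene of other organs on every array. Trbv1, a variable segment of the beta chain, was at 7.12, 7.10, 7.56 and 7.10 (7.22 ± 0.22), with array 3 apart from the others as for Cd3g and Cd8b1. Trav13-5 at 5.83 ± 0.07, Trav19 at 5.66 ± 0.26, Trav7d-4 at 4.31 ± 0.22 and Trav12-2 at 3.31 ± 0.06, segments of the alpha chain, were not called. Trdv2-2, the delta chain segment in the list, named after its values were seen, was at 4.39 ± 0.09 and not called, with an adjusted detection p of 0.475.

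A further 42 probe sets list several segments each, 31 of them with distinct values, and were examined after the data were seen. Of these, 3 list gamma segments, at 12.06 ± 0.17, 12.05 ± 0.24 and 8.02 ± 0.27, all at or above the lowest called mean. The highest was at 12.12, 12.25, 11.84 and 12.04 on arrays 1 to 4, and array 3, on which the CD3 chains were highest, was its lowest. Of 27 distinct probe sets on alpha segments, 13 were at or above the lowest called mean, beside 46.2% of all named genes that were called. The median of the 27 was 6.22, beside 6.16 over all named genes. Of the 27, 1 lay above every gene of other organs on every array, at 8.19 ± 0.17, as did 16.1% of all named genes. The 1 probe set on beta segments was at 4.38 ± 0.07. Some segments of a locus are near-identical copies that can share signal, and a probe set here does not show whether a transcript was rearranged.

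**Figure D4:**
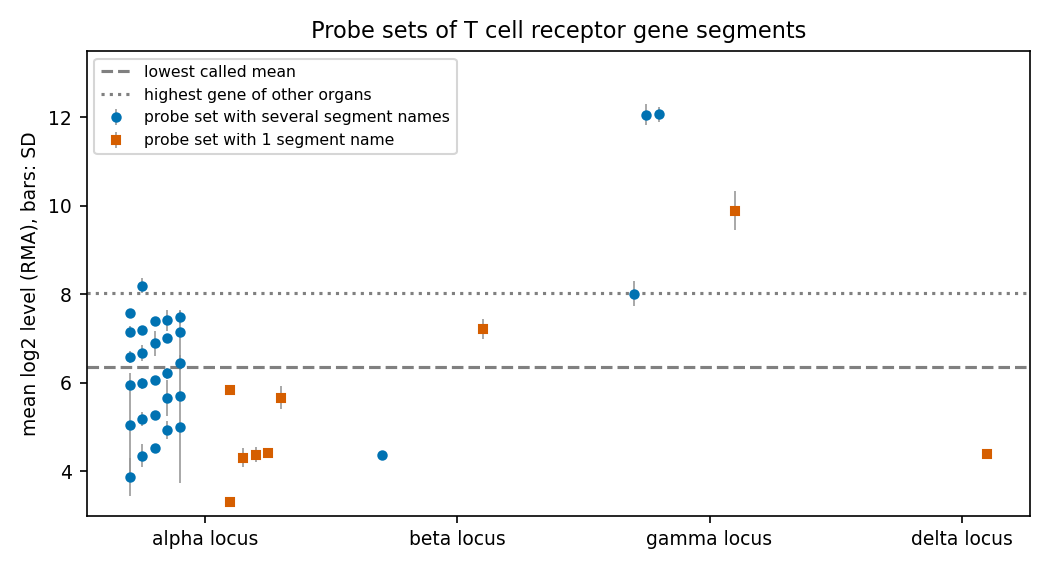
Mean log2 level over 4 arrays (vertical axis, bars SD) of probe sets on T cell receptor gene segments by locus, for the 31 distinct probe sets that list several segments (circles) and the 9 that list 1 (squares). The gamma locus holds the 3 highest, at 12.06, 12.05 and 9.89, while most alpha probe sets lie below the highest gene of other organs (dotted line, 8.03).

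Genes needed to build a receptor were mostly not above background by the detection p, which called 46.2% of all named genes. Of 6 measured, Xrcc4, a DNA repair factor used in all cells, was called at 6.82 ± 0.43. Rag1 and Rag2, the recombinase that joins receptor segments, were at 4.78 ± 0.05 and 3.97 ± 0.07, Dntt, which adds bases at the joints, at 4.94 ± 0.15, Lig4, a DNA ligase, at 6.17 ± 0.21 and Ptcra, the pre-T alpha chain, at 6.25 ± 0.23, and none of these 5 was called. Limma's test and the 95th percentile of the background genes, passed on each single array, called 3 of the 6, Xrcc4, Lig4 and Ptcra. Dclre1c is not analysed here.

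IL-17-producing gamma delta T cells can carry CCR6 and CD127, so a list of their markers was added after the data were seen. Of 8 measured, 6 were above background, beside 46.2% of all named genes. Above every gene of other organs on every array were 0 of the 8, beside 16.1%. Limma's test called 7, beside 53.5%. Blk, a SRC family kinase also of B cells, was at 8.30, 7.69, 7.59 and 7.68, Maf, a factor shared with ILC3, at 7.71 ± 0.21, Sox4 at 7.14 ± 0.50, Zbtb16, also known from innate lymphoid precursors, at 7.07 ± 0.65 and Cd163l1, a scavenger receptor, at 6.98 ± 0.20. Sox13, a lineage factor of these cells, was called at 6.46 ± 0.12 but not without array 3, at 6.43. Il17a, at 5.60, 5.68, 6.50 and 5.70, and Il17f, at 5.90 ± 0.04, were not called, although limma called Il17f. The list averaged 6.93, 6.90, 6.86 and 6.78 on arrays 1 to 4, and Scart2 and Il1r1 are not analysed here. The part of such cells in the levels of the CD3 chains was not tested.

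The remaining signalling genes of the pathway were given by 3 lists of kinases, adaptors and downstream proteins. Of 46 measured, 42 were above background and 23 were above every gene of other organs on every array, beside the 46.2% and 16.1% of all genes. Their median level was 8.18 and their median SD 0.178.

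Kinases and their regulators were above background in 14 of 14 cases. Ptprc, which encodes the phosphatase CD45 that activates LCK, was at 11.18 ± 0.13, and Ptpn22, a phosphatase that restrains LCK and ZAP70, at 10.26 ± 0.31. Txk, a TEC family kinase, was at 8.996 ± 0.294. Cblb and Cbl, ubiquitin ligases that limit receptor signalling, were at 9.40 ± 0.34 and 8.84 ± 0.11, and Ptpn6, which encodes the phosphatase SHP-1, at 8.78 ± 0.22. Syk, the relative of Zap70 that B cells use, was chosen after its values were seen. It was at 7.74, 6.35, 7.90 and 6.30 on arrays 1 to 4, whereas Zap70 kept within 0.29 log2 units. Arrays 1 and 3 both exceeded arrays 2 and 4 for 6 of the 14 genes, beside 16.4% of all genes above background. Among these 6 were Syk, Ptpn22, Ptpn6 and Cbl.

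Adaptors and exchange factors were above background in 15 of 18 cases. Fyb, a partner of the SLP-76 adaptor, was at 10.76 ± 0.06 and Lcp2, which encodes SLP-76 and binds to the LAT scaffold, at 10.65 ± 0.09. Rasgrp1, a RAS activator driven by diacylglycerol, was at 9.30 ± 0.15, Tespa1 at 8.93 ± 0.19, Sh2b3 at 8.91 ± 0.12 and Vav1, an exchange factor for small GTPases, at 8.57 ± 0.18. Trat1 and Themis, given above, and Sit1, a transmembrane adaptor of lymphocytes, at 5.80 ± 0.24, were the 3 not called.

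Downstream of LAT, 13 of 14 genes were above background. Nfatc3, a calcium-dependent transcription factor, was at 10.33 ± 0.04 and Nfatc1 at 8.47 ± 0.26. The calcineurin subunits Ppp3ca and Ppp3cb, which activate NFAT, were at 9.37 ± 0.23 and 8.96 ± 0.13. Dgka and Dgkz, kinases that remove diacylglycerol, were at 9.63 ± 0.17 and 8.41 ± 0.18. Plcg1, the phospholipase that LAT recruits in T cells, was at 6.31, 6.10, 6.52 and 6.27 (6.30 ± 0.17) and was not called, just under the lowest called mean, but was called without array 2, at 6.37, and by limma.

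**Figure D5:**
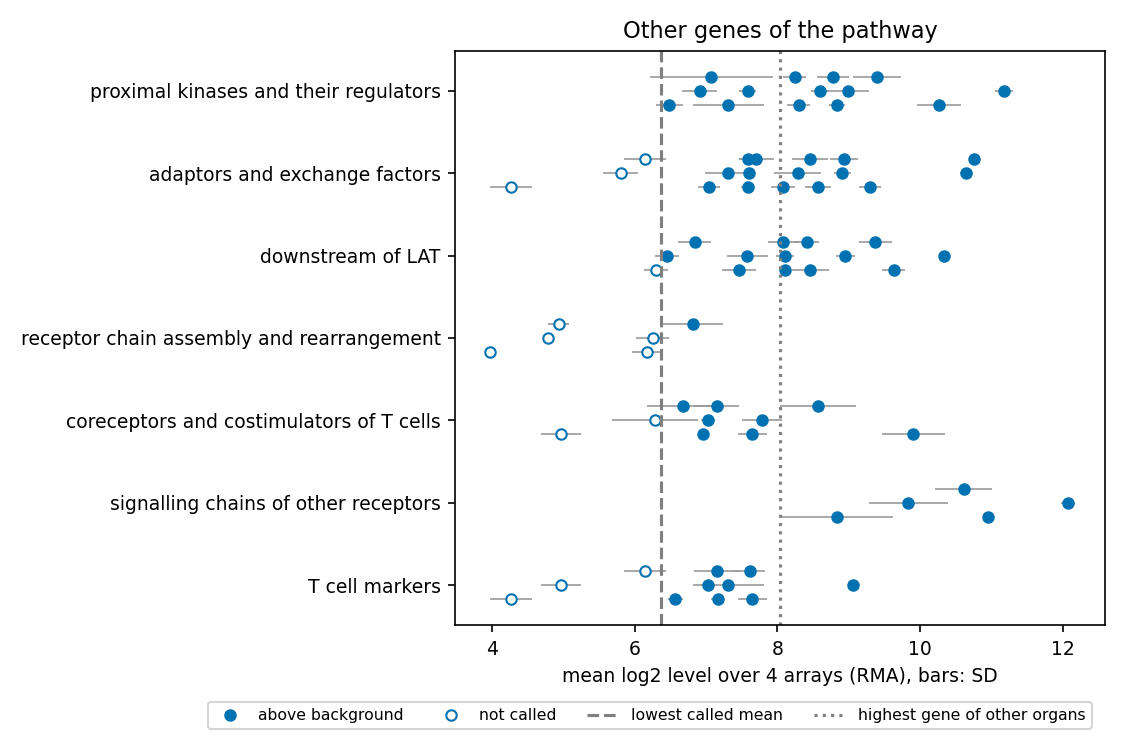
Mean log2 level over 4 arrays (horizontal axis, bars SD) of the other genes of the pathway, by list, with filled points for genes above background and open points for genes not called. Of the rearrangement genes, 5 of 6 are open, while 42 of the 46 signalling genes in the top 3 rows are filled; Cd5, Cd6, Cd28, Cd40lg, Ubash3a, Themis and Trat1 stand in 2 rows each.

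Coreceptors and costimulators of T cells outside the complex were above background in 8 of 10 cases, beside 46.2% of all named genes. Above every gene of other organs on every array were 2, beside 16.1%. Icos, a costimulator of T cells and ILC, was at 10.07, 10.11, 10.20 and 9.25 on arrays 1 to 4, with array 4 apart. Cd2, an adhesion receptor of lymphocytes, was at 8.95, 8.04, 9.10 and 8.19, high on arrays 1 and 3 as the CD3 chains and most B cell markers were. Slamf6, at 6.80, 6.35, 7.35 and 6.23, was the other of the 2 called genes of this list with that order. Cd27 was at 7.79 ± 0.28 and Cd6 at 7.03 ± 0.09. Ctla4, an inhibitory receptor, was at 6.92, 6.41, 5.46 and 6.36 and not called, but was called without array 3, at 6.56.

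Chains that do for other receptors what CD3 and zeta do for the T cell receptor were all above background. This held for 5 of 5, beside 46.2% of all named genes. Fcer1g, the Fc receptor gamma chain and a relative of zeta, was at 12.09, 12.18, 11.94 and 12.10 on arrays 1 to 4 (12.08 ± 0.10). Hcst, which encodes DAP10, was at 10.96 ± 0.07 and Tyrobp, which encodes DAP12, at 10.61 ± 0.40. The B cell receptor uses Cd79a and Cd79b, which were at 8.84 ± 0.78 and 9.84 ± 0.55 and had the array order of the other B cell markers. As probe sets bind differently, the distance between Fcer1g and Cd247 is not a ratio of their RNA.

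The protein-coding genes next to the members on the chromosome were also read. Of 12 measured neighbours that are no members, 7 were above background, beside 46.2% of all named genes. Beside the CD3 genes, Mpzl2, the neighbour of Cd3e, was at 4.72 ± 0.05 and not called, and Ube4a, the neighbour of Cd3g, was at 7.78 ± 0.11. Beside Cd4, Lag3, an inhibitory receptor related to CD4, was at 6.96 ± 0.06 and called, and Gpr162 at 6.03 ± 0.26 was not. Beside Cd8b1, Gm1070 was at 5.80 ± 0.04 and not called, and beside Cd8a, Rmnd5a was at 7.72 ± 0.06. Creg1 next to Cd247 was at 8.16 ± 0.31, Tmem131 next to Zap70 at 9.92 ± 0.13 and Spns1 next to Lat at 7.61 ± 0.09, all called, while Sbk1 on the other side of Lat was at 5.63 ± 0.22 and not. Hdac1 and Fam167b, on either side of Lck, were at 9.89 ± 0.18 and 5.84 ± 0.02.

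The genes whose movement was most like the mean of the 3 CD3 chains were found by the root mean square difference of their deviations over the 4 arrays. The 5 nearest of 9203 genes above background were Dennd6a, 5031425E22Rik, Wbp1, Zpr1 and Prkcb, at differences of 0.0411 to 0.0547 log2 units. Dennd6a was at 7.61, 7.32, 8.06 and 7.34 on arrays 1 to 4. Between 0 and 1 of the same 5 were found when any 1 array was left out, so over 4 arrays the choice has little stability. 5031425E22Rik was itself not called without array 3, at 6.34. By this measure 324 of the genes above background lay nearer to the mean than Cd3d did, and 5549 nearer than Cd4. Among the 11 B cell markers above background, this number ran from 15 for Ebf1 to 8480 for Blnk, with 1501 for Cd79b and 7529 for Ms4a1. The measure takes in the size of the movement as well as its order.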

How the data were processed

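The authors deposited log2 values, 1 per probe set and array, made by robust multi-array averaging (RMA) as the submitters' processing notes name it. Version, software and genome build: not given in the sources used here. The method subtracts background, equalises the arrays and summarises probes, and can give the same value on several arrays, which makes some SDs too small. No scanner file was used. The table held 35556 probe sets on 4 arrays. GEO's platform annotation gave 1 symbol to 21789 of them, several to 1621 and none to 12146. Symbols were updated through the RefSeq table of GRCm38.p6. Each gene was represented by its brightest probe set on average. Detection p-values could not fall below 0.000808, and 27 of the 1237 background genes were themselves called. Limma 3.58.1 in R 4.3.3, Python 3.11.15 and pandas 2.3.3 were used, and the calculations were tested on simulated data.

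The members and lists were chosen with earlier results of these data known. Named were all members, up to 6 called and 4 uncalled genes of each list by mean, 4 high and 2 low receptor segment genes, chromosomal neighbours and the 5 genes nearest in pattern; Tradd, an adaptor caught by the segment name pattern, was left out, and any other gene was chosen after its values were seen. Not all genes the rule took are printed. The list of genes of other organs held 16 genes, 15 of them measured. Alternatives varied arrays, background, test, normalization, probe set choice and filter. The number of arrays limits the precision.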

Additional observations from a re-analysis of the deposited data

Results flagged for a closer look

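On 1 array each, 16 of the 128 genes taken by rule stood apart from the other 3 arrays, with a gap over Dixon's 95% critical value for 4 samples. The critical value is set so that chance flags about 1 gene in 20 where values are normal and untied. RMA values can be tied, and the share flagged among all named genes was not calculated, so no excess is read from the count. Among the members, this held for Cd3g, at 9.51 on array 3. Trbv1, at 7.56, and Il17a, at 6.50, were also high on array 3. Ubash3a was high on array 4, at 8.05, Blk and Creg1 on array 1, at 8.30 and 8.62, and Mpzl2 on array 2, at 4.79. Low were Cd27 on array 2, at 7.37, Icos and Vav1 on array 4, at 9.25 and 8.30, and Lag3 on array 3, at 6.88. The mean of the dendritic cell and macrophage markers was low on array 4, at 5.58. Of the genes of other organs, Apoh was low on array 1, at 4.72, Ckm on array 3, at 7.12, and Gfap on array 2, at 5.05, and Umod was high on array 1, at 5.08. Fam167b was low on array 3, at 5.80. For Umod, Gfap and Fam167b the other 3 arrays had identical values, so their gap fills the whole range.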

How the results depend on the processing

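The count of 9 members above background was the same under every alternative but those based on genes of other organs, which left 5, or 6 without Mbp. The 42 pathway genes were 23 by that rule and 27 without Mbp, and between 41 and 43 without 1 array. The same rule, without Mbp second, left 8 and 9 of 14 kinases, 7 and 9 of 15 adaptors, 8 and 9 of 13 downstream genes, 2 and 2 of 8 costimulators, 1 and 1 of 8 T cell markers, 2 and 5 of 11 B cell markers, 1 and 2 of 8 NK markers, 0 and 1 of 3 dendritic cell and macrophage markers, 1 and 1 of 2 segment genes, and 0 of the 6 gamma delta T cell markers and of the 1 rearrangement gene. Filtering dim probe sets called 3 rearrangement genes and 6 dendritic cell and macrophage markers. The median SD of the members, 0.221, was 0.158 to 0.270 without 1 array, and the range of the CD3 mean 0.381 to 0.725, smallest without array 3. Of the 128 genes taken by rule, 3 lost their call against olfactory receptors alone. Centring or quantile normalization of the arrays changed none of the 128 calls, and probe set choice changed none; each member had 1 probe set. No paired analysis was possible because all 4 arrays form 1 group.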

Other observations

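Of the probe sets that list several alpha segments, 1 was at 4.23, 3.84, 6.97 and 7.74 on arrays 1 to 4, and another at 4.58, 4.49, 4.37 and 6.79. Both lay below the lowest called mean on arrays 1 and 2 and above it on array 4.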
